A study of Mus musculus with 8 samples.

Results

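The transcripts of 10 transcription factor genes of the lung mesenchyme were followed in sorted cells of tumor-bearing mouse lungs. The genes were taken by name, as Tbx3, Tbx4, Tbx5, Foxf1, Tcf21, Twist1, Twist2, Prrx1, Meox1 and Meox2, and all 10 had a row in the deposited count table, which held 27179 rows. The lungs came from female C57BL/6 mice (C57BL/6J in the study's methods) with an Eml4-Alk rearrangement, a fusion of the Eml4 gene with the receptor tyrosine kinase gene Alk that drives lung adenocarcinoma, made in the lung by an adenovirus that carried Cas9 and guide RNAs. At 11 to 12 weeks after tumor induction and 18 to 22 weeks of age, the mice received 4.5 nmol of QZ1-(PEG2K) by vein, a PEG-coupled peptide probe whose Cy5 dye lights up once a protease cuts its linker, and lung tissue was removed after 2 h. Cells that were alive and stained negative for CD45 and CD11b were divided by probe signal, gated against EpCAM, into QZ1-hi cells (condition QZ+ in the sample labels) and QZ1-lo cells (QZ-), with 4 libraries of each. Every library therefore came from tumor-bearing, probe-injected mice, and no healthy or uninjected lung entered the comparison. The labels give neither the number of mice behind a library nor which QZ1-hi and QZ1-lo libraries came from the same mouse. Replicates were numbered 1 to 4 within each population in the order of deposit. A shared number is a name only and does not show whether a QZ1-hi and a QZ1-lo library shared a mouse.

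These factors belong to 4 families of DNA-binding proteins. The T-box factors Tbx2, Tbx3, Tbx4 and Tbx5 are expressed in the mesenchyme of the developing lung, where Tbx4 and Tbx5 act on bud outgrowth and branching. Foxf1, a forkhead factor, is needed in splanchnic mesenchyme and in the pulmonary microvasculature, and its transcription answers to Hedgehog ligand from the epithelium. Tcf21, Twist1 and Twist2 are basic helix-loop-helix factors that bind DNA as dimers with E proteins, and Tcf21 marks fibroblasts that store lipid. Prrx1, Meox1 and Meox2 carry a homeodomain, Prrx1 being a factor of fibroblasts and Meox2 of vascular and other mesoderm.

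Of the 9 factors that passed the filter on low counts, 7 were higher in QZ1-hi than in QZ1-lo cells, namely Tbx3, Tbx4, Tbx5, Foxf1, Prrx1, Meox1 and Meox2, and none was lower (edgeR quasi-likelihood test, Benjamini-Hochberg adjusted p under 0.05 over 15583 genes). Of all genes tested, 9.88% were called higher and 8.21% lower, which is 18.1% in either direction. The median log2 fold change of the 9 factors was 3.05, beside 0.02 over all genes tested. Tcf21 and Twist2 were not called, and Twist1 was not tested because its counts fell under the filter. In 6 of the 9 tested factors every QZ1-hi library lay above every QZ1-lo library, an order found in 11.9% of all genes tested. In bulk samples such as these, a larger number of cells of a type cannot be told apart from more RNA of a gene in each cell.

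Libraries held 18380918 to 26847938 counts. Genes of the mitochondrial genome or ribosomal RNA took 44.0% to 65.7% of them in QZ1-hi and 34.3% to 53.5% in QZ1-lo libraries. This left 8711742 to 16311828 counts on other genes. The share thus tended to be higher in QZ1-hi libraries, with overlap. Levels are given as CPM, the usual depth-scaled read count, on library sizes adjusted by edgeR's trimmed mean of M-values, so that 3 counts stand for 0.0894 to 0.179 CPM depending on the library. As a floor, those limits cover counting error only. Ranges of levels given for a population run from its lowest to its highest library. Transcripts of proteins stained for the sort were read as well. Epcam encodes the epithelial protein against which probe signal was plotted, while the cut itself was made on probe signal. Its level was 58.7 ± 16.3 CPM in QZ1-hi and 132 ± 17.4 CPM in QZ1-lo cells (mean ± SD, n = 4 libraries each). Ptprc, which encodes CD45, was present in every library, at 71.4 to 222 CPM in QZ1-hi and 93.4 to 161 CPM in QZ1-lo cells, although CD45-stained cells had been gated out. Neither population was therefore a pure cell type.

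The stretch of 250 bases before the start that RefSeq annotates is shown for 4 genes: Tbx4, Prrx1 and Meox2, 3 of the called factors, and Fendrr, the long non-coding RNA gene next to Foxf1. They are shown because they moved together and because each holds a short motif that 1 of the 4 protein families is known to bind. The sequences come from RefSeq on GRCm38.p6 and read 5′ to 3′ on the strand of the gene, ending at the base before that start. For Tbx4 and Prrx1 the start used for the window lies inside the gene coordinates given further on. These windows are therefore not the sequence before the outer 5′ end of the gene. Capitals mark the matches to CANNTG (the E-box of basic helix-loop-helix factors), TAATTA (a homeodomain motif) and TGTTTA or TAAACA (a forkhead motif on either strand). The T-box motif, GGTGTG or CACACC, was searched too. The search covered both strands, and no match overlapped another motif.
Tbx4, chr11:85896515-85896764, plus strand: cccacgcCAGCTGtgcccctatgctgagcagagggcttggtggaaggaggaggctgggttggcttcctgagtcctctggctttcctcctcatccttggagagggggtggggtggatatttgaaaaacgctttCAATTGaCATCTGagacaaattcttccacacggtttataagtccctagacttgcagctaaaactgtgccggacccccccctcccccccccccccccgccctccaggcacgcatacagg
Prrx1, chr1:163313651-163313900, minus strand: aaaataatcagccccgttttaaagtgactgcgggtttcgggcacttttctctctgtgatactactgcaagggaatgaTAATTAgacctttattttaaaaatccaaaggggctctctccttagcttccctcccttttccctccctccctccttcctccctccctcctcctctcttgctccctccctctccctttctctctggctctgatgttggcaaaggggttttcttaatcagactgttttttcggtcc
Meox2, chr12:37108290-37108539, plus strand: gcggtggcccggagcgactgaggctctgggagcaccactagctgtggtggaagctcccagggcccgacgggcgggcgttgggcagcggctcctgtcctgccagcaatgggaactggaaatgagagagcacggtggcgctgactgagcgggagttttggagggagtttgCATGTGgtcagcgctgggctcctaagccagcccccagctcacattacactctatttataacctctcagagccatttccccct
Fendrr, chr8:121083111-121083360, minus strand: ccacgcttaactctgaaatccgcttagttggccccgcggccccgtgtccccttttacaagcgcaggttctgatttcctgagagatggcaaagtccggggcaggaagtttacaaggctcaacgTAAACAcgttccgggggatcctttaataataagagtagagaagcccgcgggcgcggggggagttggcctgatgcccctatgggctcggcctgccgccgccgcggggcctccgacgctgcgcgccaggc

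The Tbx4 window held 3 E-boxes, beginning at -243, -118 and -111 from the start, and the Meox2 window held 1, at -82. The homeodomain motif lay at -173 in the Prrx1 window. The forkhead motif lay at -128 in the Fendrr window. Of 32851 mouse promoter windows of the same length, 66.2% held an E-box, 16.3% the T-box motif, 12% the forkhead motif and 4.84% the homeodomain motif. The windows of Tcf21, Twist1 and Twist2 held none of the 4 motifs. RefSeq windows were at hand for 6 of the 10 factors and not for Tbx3, Tbx5, Foxf1 and Meox1. A match is a run of letters and was not tested as a binding site.

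Tbx3, which regulates proliferation in the lung bud, had the highest level per kilobase of exon of the 3 T-box members. It lies on chromosome 5 (119670534 to 119684724, plus strand, GRCm38.p6), 111789 bases before Tbx5. Its level was 50.7, 37.9, 53.9 and 47.7 CPM in QZ1-hi replicates 1 to 4 and 2.74, 7.20, 7.78 and 4.13 CPM in QZ1-lo replicates 1 to 4. The lowest QZ1-hi library stood far above the highest QZ1-lo library, and the QZ1-hi libraries lay close together. Tbx3 was higher in QZ1-hi cells by 3.12 on the log2 scale (SE 0.30, edgeR adjusted p = 0.00025). Among the 9 tested factors it had the smallest standard error. Its exons share 1.74% of their bases with the antisense gene Tbx3os1.

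Tbx4, a factor restricted to the lung mesenchyme and hind limb during development, lies on chromosome 11 (85886367 to 85916097, plus strand). It reached 8.35, 5.19, 5.67 and 3.40 CPM in the QZ1-hi libraries against 0.865, 1.18, 1.63 and 0.450 CPM in the QZ1-lo libraries. The populations did not overlap, although QZ1-hi replicate 1 stood above the other 3. Its log2 fold change was 2.45 (SE 0.45, edgeR adjusted p = 0.00311).

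Tbx5, better known for its part in the heart and forelimb, lies on chromosome 5 (119796514 to 119885220, plus strand). Its levels in QZ1-hi replicates 1 to 4 were 4.83, 7.11, 10.2 and 2.68 CPM, and in QZ1-lo replicates 1 to 4 they were 0.805, 0.651, 2.39 and 0.205 CPM. The populations did not overlap, but QZ1-hi replicate 4 and QZ1-lo replicate 3 came near each other. Tbx5 rose by a log2 fold change of 2.60 (SE 0.65, edgeR adjusted p = 0.0168). Without QZ1-hi replicate 3 the call was lost (log2 fold change 2.25, edgeR adjusted p = 0.0551), and without QZ1-lo replicate 3 the log2 fold change was 3.45.

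Among the other T-box genes, Tbx2, the closest relative of Tbx3 and a regulator of the cell cycle, was higher too. It was 33.7 ± 6.71 CPM in QZ1-hi and 3.96 ± 1.03 CPM in QZ1-lo cells (mean ± SD over 4 libraries), a difference of 3.08 on the log2 scale (SE 0.22, edgeR adjusted p = 7.47e-05). Its end lies 44418 bases from the start of Tbx4. Tbx1, a factor of the pharyngeal apparatus, went the other way, with 4.35 ± 1.66 CPM in QZ1-hi and 9.63 ± 3.21 CPM in QZ1-lo cells (log2 fold change -1.14, SE 0.33, edgeR adjusted p = 0.0321). The Tbx1 levels overlapped between the populations, and no T-box gene was called lower once QZ1-hi replicate 1, 3 or 4, or QZ1-lo replicate 2 or 3, was left out, nor by limma. Tbx18, a factor of mesothelium and mural cells, was 8.35 CPM in QZ1-hi replicate 2 and 0.297 to 2.25 CPM in the other 3 QZ1-hi libraries, against 0.0596 to 0.941 CPM in QZ1-lo cells, and was not called (log2 fold change 2.80, SE 1.03, edgeR adjusted p = 0.0889). Its exons share 20.6% of their bases with D030062O11Rik on the opposite strand.

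**Figure D1:**
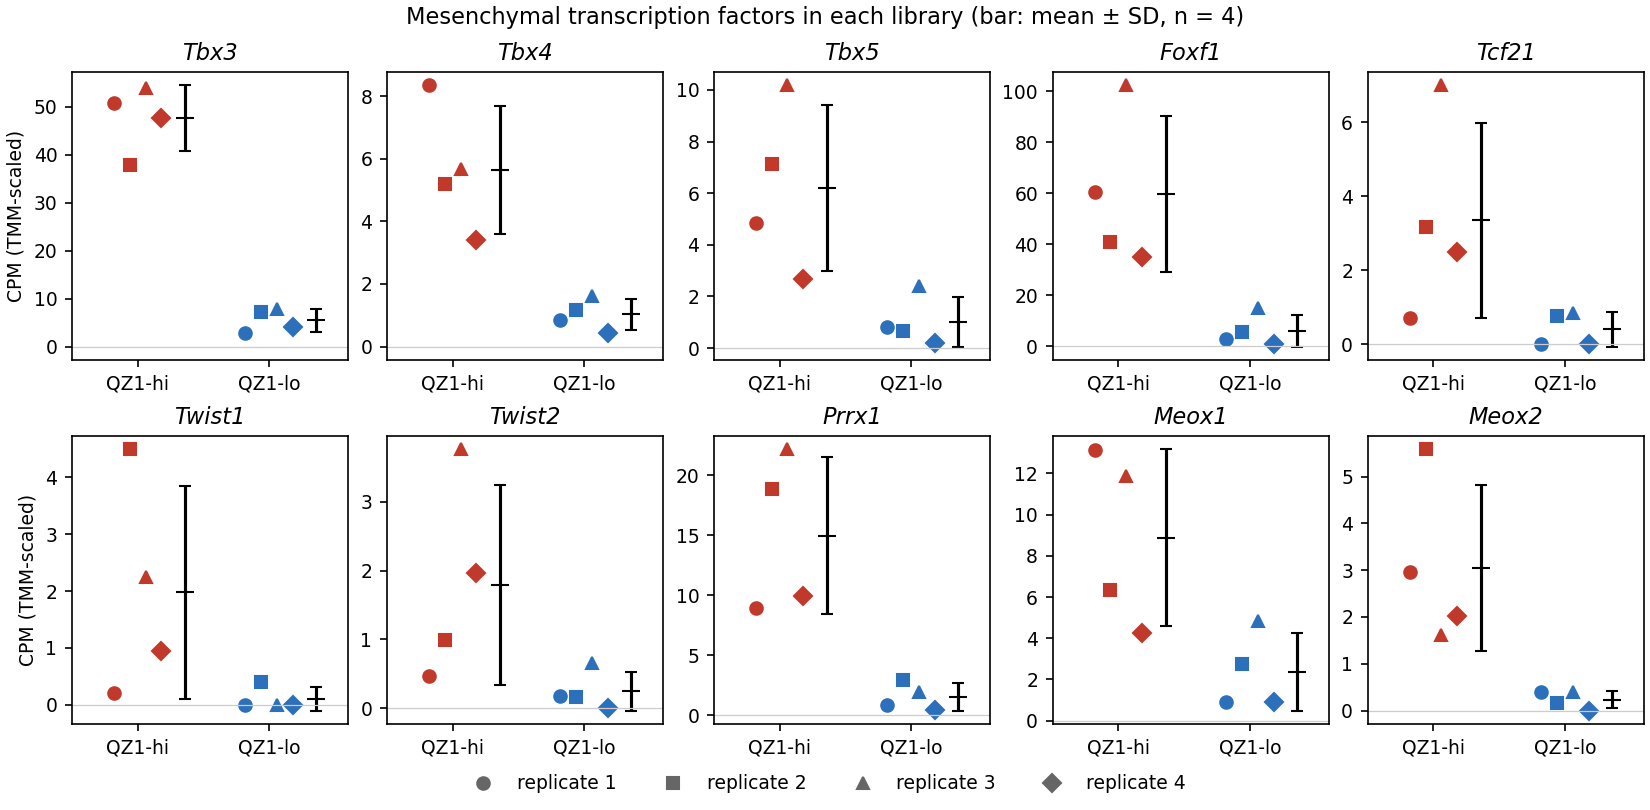
Level of each factor in CPM scaled by the trimmed mean of M-values (vertical axis, a separate linear scale for each gene) in the 4 QZ1-hi libraries (red) and the 4 QZ1-lo libraries (blue), with the marker shape giving the replicate and the black bar the mean ± SD. The populations are fully apart for Tbx3, Tbx4, Tbx5, Foxf1, Prrx1 and Meox2, while Tcf21, Twist1, Twist2 and Meox1 overlap; Tbx3 runs from 37.9 to 53.9 CPM in QZ1-hi and from 2.74 to 7.78 CPM in QZ1-lo cells.

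Foxf1 had the highest level per kilobase of exon of the 10 factors in the QZ1-hi libraries. The gene lies on chromosome 8 (121084386 to 121088154, plus strand), and 4.06% of its exonic bases overlap Gm27530 on the opposite strand. It was measured at 60.5, 41.1, 102 and 35.0 CPM in QZ1-hi replicates 1 to 4 and at 2.92, 5.65, 15.2 and 1.10 CPM in QZ1-lo replicates 1 to 4. QZ1-hi replicate 3 and QZ1-lo replicate 3 were the highest libraries of their populations, yet the populations did not overlap. Foxf1 rose by a log2 fold change of 3.26 (SE 0.65, edgeR adjusted p = 0.00488), which became 4.21 without QZ1-lo replicate 3.

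Fendrr, whose RNA is transcribed away from Foxf1 from a start 1275 bases off, was higher as well. It was 25.6, 17.3, 31.5 and 29.5 CPM in QZ1-hi replicates 1 to 4 and 1.31, 2.48, 6.19 and 1.43 CPM in QZ1-lo replicates 1 to 4, with no overlap. Fendrr rose by 3.18 on the log2 scale (SE 0.46, edgeR adjusted p = 0.000853). On the same stretch of chromosome, Mthfsd was 5.17 ± 0.551 CPM in QZ1-hi and 6.93 ± 0.282 CPM in QZ1-lo cells and was not called. Foxl1, a forkhead gene nearby, was at 0 to 0.296 CPM in every library and fell under the filter. Foxf2, the paralogue of Foxf1, which acts in mesenchyme of gut and palate, was 2.97 ± 0.468 CPM in QZ1-hi and 0.360 ± 0.187 CPM in QZ1-lo cells (log2 fold change 3.03, SE 0.53, edgeR adjusted p = 0.00245).

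The basic helix-loop-helix factors had low counts. Tcf21 (chromosome 10, 22817263 to 22820143, minus strand) was read 17, 64, 121 and 42 times in QZ1-hi replicates 1 to 4 and 0, 19, 23 and 0 times in QZ1-lo replicates 1 to 4. That is 0.720, 3.16, 7.00 and 2.50 CPM against 0, 0.773, 0.832 and 0 CPM. In 3 of the 4 QZ1-hi libraries Tcf21 stood above every QZ1-lo library, while QZ1-hi replicate 1 lay under 2 of them. Its log2 fold change of 3.05 carried a standard error of 1.13 and was not called (edgeR adjusted p = 0.0907). It was called when libraries were scaled by size only (log2 fold change 2.64, edgeR adjusted p = 0.0431).

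Twist2, a repressor of fibroblast and bone differentiation (chromosome 1, 91801461 to 91848034, plus strand), was read 11, 20, 65 and 33 times in the QZ1-hi libraries and 6, 4, 18 and 0 times in the QZ1-lo libraries. Its levels were 0.466, 0.988, 3.76 and 1.97 CPM against 0.179, 0.163, 0.651 and 0 CPM, so that 3 QZ1-hi libraries stood above all QZ1-lo libraries. Twist2 was not called, with a log2 fold change of 2.81 (SE 1.00, edgeR adjusted p = 0.0781). It was called by DESeq2 (log2 fold change 2.85, adjusted p = 0.0151) and by edgeR without QZ1-lo replicate 3 (log2 fold change 3.87, adjusted p = 0.0359). These counts are uncertain in a further way, since 46.5% of the exonic bases of Twist2 overlap Gm29100 on the opposite strand. Gm29100 has no row of its own in the table, and the strand setting of the counting is not given in the sources used here.

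Twist1, which drives mesenchymal fate and represses E-cadherin, lies on chromosome 12 (33957671 to 33959831, plus strand). Its counts were 5, 91, 39 and 16 in QZ1-hi replicates 1 to 4, and in the QZ1-lo libraries it was read only in replicate 2, 10 times. The highest level, 4.49 CPM in QZ1-hi replicate 2, lay beside 2.25, 0.953 and 0.212 CPM in the other QZ1-hi libraries, the last of which was under the 0.407 CPM of QZ1-lo replicate 2. Fitted with no filter on low counts, its log2 fold change was 4.26 (edgeR adjusted p = 0.0462). With mitochondrial and ribosomal RNA genes removed, Twist1 passed the filter with all 8 libraries and was not called (log2 fold change 4.28, edgeR adjusted p = 0.0504). In fits that kept the filter but left out QZ1-lo replicate 1, 3 or 4, Twist1 passed the filter and was not called, with edgeR adjusted p values of 0.101 to 0.115, whereas it was called without QZ1-hi replicate 1 (0.0410) and without QZ1-lo replicate 2 (0.0148).

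The partners of these proteins were listed too. Of 7 genes of E proteins, which pair with Twist and Tcf21, and of Id proteins, which block that pairing, 3 were called higher and none lower, with a median log2 fold change of 0.59. Tcf4, an E protein gene, rose by a log2 fold change of 1.95 (SE 0.20, edgeR adjusted p = 0.000263), while the E protein genes Tcf3 and Tcf12 were not called, at 0.12 and 0.19. The inhibitor genes Id3 and Id1 rose by log2 fold changes of 1.91 and 1.38. Of the helix-loop-helix relatives, Scx and Msc were tested and not called, while Hand1, Hand2 and Tcf15 fell under the filter. Hand1 was at 0 counts in all 8 libraries, which allows up to 0.0894 to 0.179 CPM.

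Prrx1, a homeodomain factor of fibroblasts and of limb and lung mesenchyme, lies on chromosome 1 (163245119 to 163315145, minus strand). Its levels were 8.94, 18.8, 22.1 and 9.95 CPM in QZ1-hi replicates 1 to 4 and 0.835, 2.97, 1.92 and 0.409 CPM in QZ1-lo replicates 1 to 4. Replicates 2 and 3 of each population were its higher libraries, and the populations did not overlap. Its log2 fold change was 3.29 (SE 0.54, edgeR adjusted p = 0.00166). Prrx2, its relative, was measured at 1.42 ± 0.308 CPM in QZ1-hi cells and no more than once in any QZ1-lo library, so that it was at least 12.8-fold higher in QZ1-hi cells when 3 counts per library are taken as the floor.

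Meox1, a homeodomain factor of somites and of activated fibroblasts (chromosome 11, 101877510 to 101894354, minus strand), had the smallest change of the called factors. Its level was 13.1, 6.32, 11.9 and 4.23 CPM in the QZ1-hi libraries and 0.924, 2.77, 4.85 and 0.900 CPM in the QZ1-lo libraries. QZ1-lo replicate 3 exceeded QZ1-hi replicate 4, so the populations overlapped. Meox1 rose by 1.91 on the log2 scale (SE 0.56, edgeR adjusted p = 0.0363). The call was lost in 5 of the 8 fits that left out a library, namely without QZ1-hi replicate 1 or 3 or QZ1-lo replicate 1, 2 or 4, with edgeR adjusted p values from 0.0705 to 0.0994. Without QZ1-lo replicate 3 it rose by 2.55.

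Meox2, which restrains the cell cycle of vascular cells (chromosome 12, 37108540 to 37179534, plus strand), had the largest change of the 9 tested factors and ranked 121 of 15583 genes by log2 fold change. It was 2.97, 5.58, 1.62 and 2.03 CPM in QZ1-hi replicates 1 to 4 and 0.388, 0.163, 0.398 and 0 CPM in QZ1-lo replicates 1 to 4. The populations did not overlap, and QZ1-hi replicate 2 stood above the others. Meox2 rose by 3.63 on the log2 scale (SE 0.81, edgeR adjusted p = 0.00952). Unlike Tbx3, Foxf1 and Prrx1, Meox2 was lowest in replicate 3 of the QZ1-hi libraries.

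**Figure D2:**
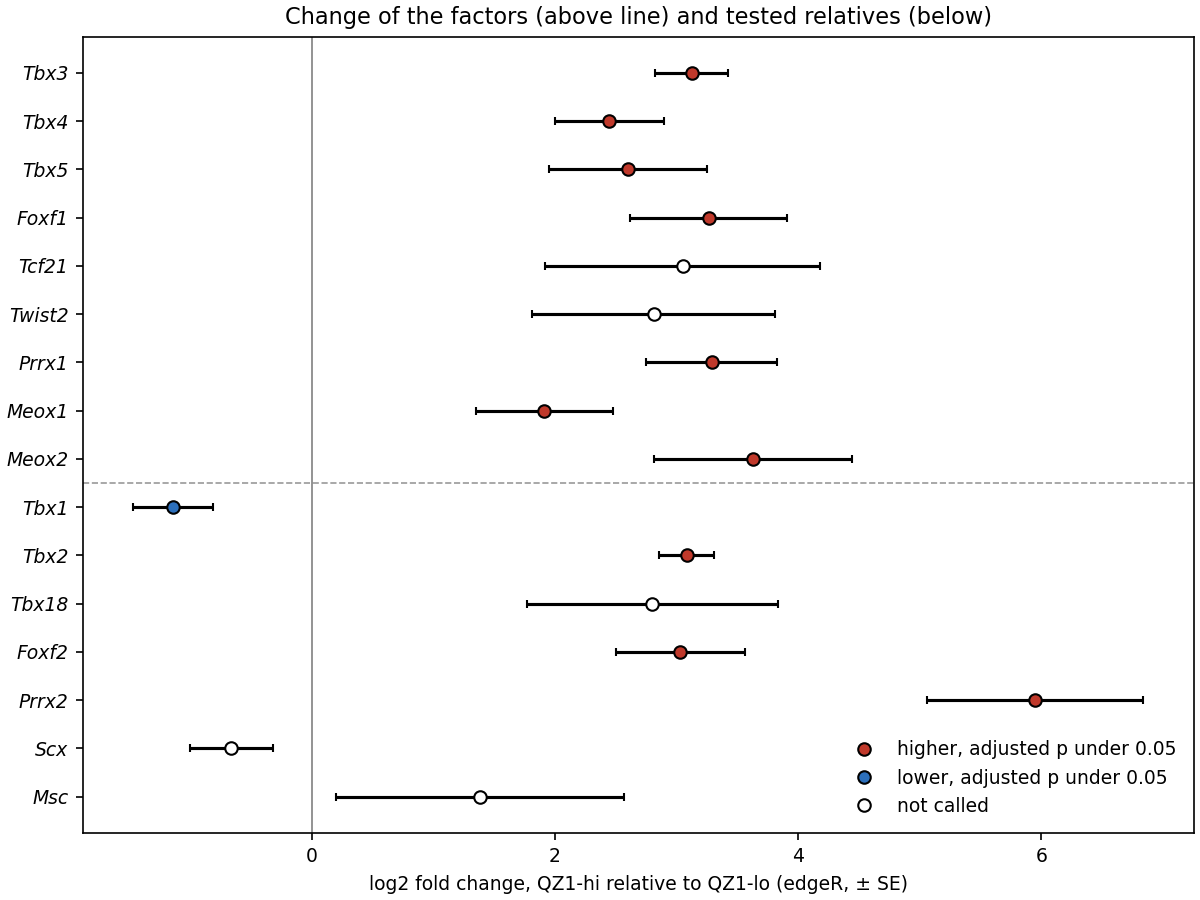
Log2 fold change of QZ1-hi relative to QZ1-lo cells (horizontal axis, edgeR) with its standard error as the bar, for the 9 tested factors above the dashed line and their tested relatives below it; red marks genes called higher, blue genes called lower and white genes not called. The factors run from 1.91 for Meox1 to 3.63 for Meox2, with the widest bars among them on Tcf21 and Twist2, and Tbx1 lies to the left of 0 at -1.14; the point of Prrx2 rests on a QZ1-lo level at the floor and depends on the fit.

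Levels of different genes were compared per kilobase of merged exon (GENCODE M21). In QZ1-hi cells Foxf1 was first at 24.7 ± 12.6 CPM per kb, followed by Tbx3 at 7.18 ± 1.04 and Meox1 at 3.99 ± 1.92 CPM per kb (mean ± SD, n = 4). Next came Tbx4 at 1.66 ± 0.602, Tcf21 at 1.42 ± 1.13, Prrx1 at 1.35 ± 0.590, Tbx5 at 1.33 ± 0.686, Meox2 at 1.29 ± 0.754 and Twist1 at 1.22 ± 1.15 CPM per kb. Neighbours among those 6 differed by less than the standard deviation of either, so their order is not settled by these libraries. Twist2 was last at 0.565 ± 0.457 CPM per kb, below Twist1 by less than the standard deviation of Twist1. In QZ1-lo cells the order began with Foxf1 at 2.57 ± 2.59, Meox1 at 1.06 ± 0.842 and Tbx3 at 0.825 ± 0.365 CPM per kb. Foxf1 and Meox1, and Meox1 and Tbx3, differed by less than the larger of their standard deviations.

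The libraries of a population differed among themselves, and most factors differed in the same libraries. QZ1-hi replicate 3 was the highest QZ1-hi library for 6 of the 10 factors (Tbx3, Tbx5, Foxf1, Tcf21, Twist2 and Prrx1), replicate 1 for Tbx4 and Meox1, and replicate 2 for Twist1 and Meox2. Among the QZ1-lo libraries, replicate 3 was highest for 8 factors and replicate 2 for Twist1 and Prrx1, while replicate 4 was lowest for 9, ties at 0 included. Cell type markers differed between the same libraries. The summed level of 10 endothelial markers was 1114 to 2519 CPM in QZ1-hi and 86.4 to 354 CPM in QZ1-lo cells, and it was highest in replicate 3 of each population. The 7 general mesenchyme markers summed to 1580 to 3046 CPM in QZ1-hi and 40.8 to 355 CPM in QZ1-lo cells, again highest in replicate 3, and the lowest of all 8 libraries was QZ1-lo replicate 4. Mesothelial markers were spread otherwise, with 353 CPM in QZ1-hi replicate 2 against 51.8 to 95.7 CPM in the other QZ1-hi libraries and 7.00 to 44.4 CPM in QZ1-lo cells. The 7 leukocyte markers summed to 2961 to 6299 CPM in QZ1-hi and 2114 to 4169 CPM in QZ1-lo cells. Most of that sum was the single gene Lyz2, at 2696 to 5763 CPM in QZ1-hi and 1895 to 3761 CPM in QZ1-lo cells. The 4 erythroid markers summed to 131 to 1006 CPM in QZ1-hi and 282 to 3097 CPM in QZ1-lo cells. Both sums were highest in QZ1-hi replicate 4 and QZ1-lo replicate 4, the latter being the library lowest for 9 factors. No defining marker of the endothelial, general mesenchyme and mesothelial lists was at 0 in QZ1-hi cells. The part of these cell types in the change of a factor was not tested.

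**Figure D3:**
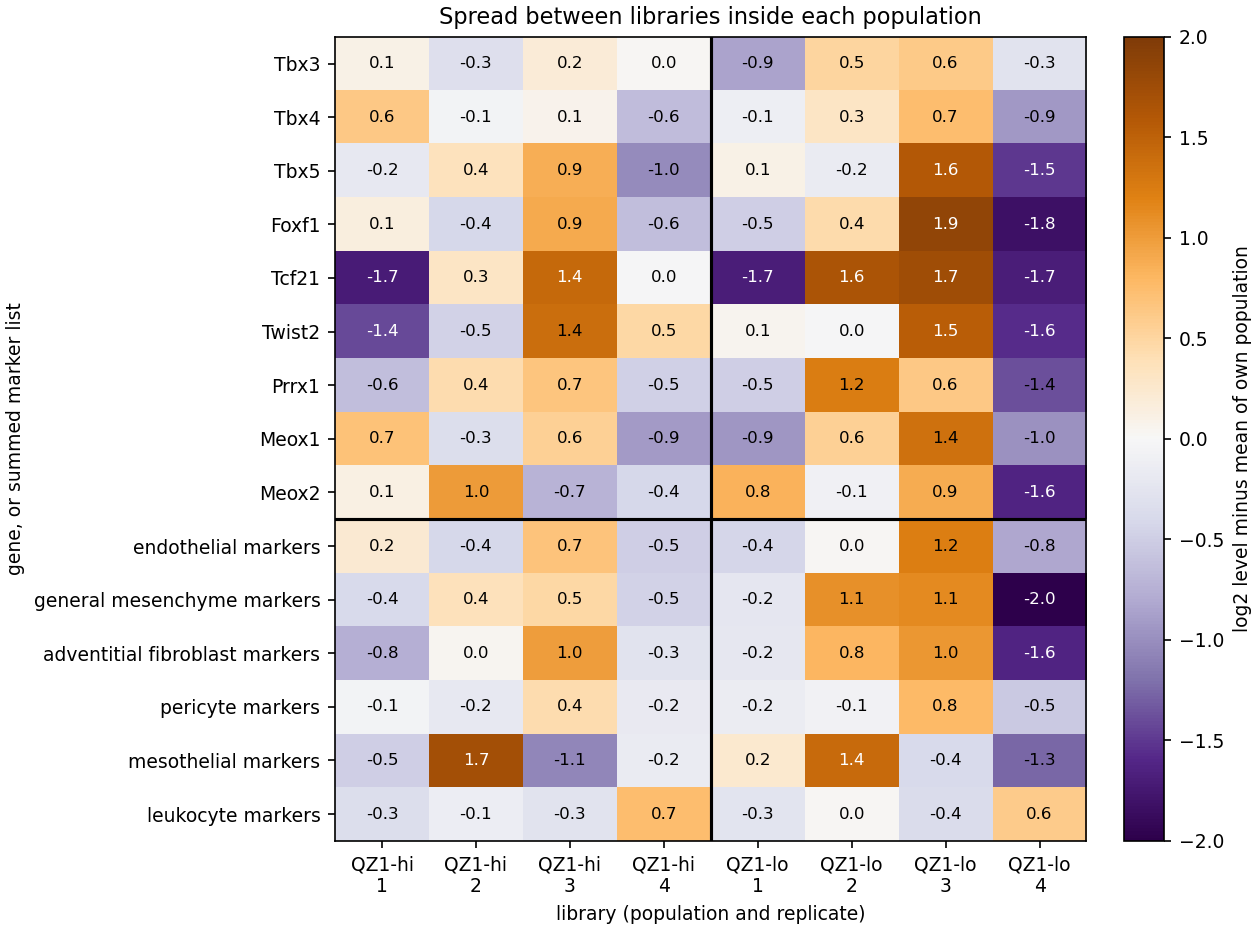
Log2 level of each tested factor, and of summed marker lists, in every library minus the mean of its own population (color and printed value; columns are libraries, the thick vertical line parts QZ1-hi from QZ1-lo). Foxf1 reads 0.9 in QZ1-hi replicate 3, 1.9 in QZ1-lo replicate 3 and -1.8 in QZ1-lo replicate 4. The endothelial markers read 0.7, 1.2 and -0.8 there. The mesothelial markers read 1.7 in QZ1-hi replicate 2 and 1.4 in QZ1-lo replicate 2, where Meox2 reads 1.0 and -0.1.

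To set each factor beside the cells that may carry it, its counts were divided by the summed counts of the general mesenchyme markers and of the endothelial markers within each library, with 0.5 added to each, which leaves a ratio that does not depend on scaling. Of 20 such ratios none passed Benjamini-Hochberg adjustment (two-sided exact permutation test over 70 assignments, smallest possible p 0.0286). At that smallest p, a ratio could pass over 20 tests only if many others were fully apart as well. The adjustment could therefore not decide single ratios. The standard errors of the 20 differences ran from 0.24 to 1.59 log2 units, so that equal change is not shown either. Foxf1 relative to mesenchyme markers had log2 ratios that averaged -5.32 ± 0.608 in the QZ1-hi and -5.30 ± 0.586 in the QZ1-lo libraries (mean ± SD, n = 4), a difference of -0.01 with a standard error of 0.42. Prrx1 relative to mesenchyme markers kept a narrow range, -7.29 ± 0.182 in QZ1-hi and -7.07 ± 0.440 in QZ1-lo cells. Foxf1 relative to endothelial markers was as narrow in QZ1-hi cells, at -4.84 ± 0.161, and was -5.21 ± 0.765 in QZ1-lo cells.

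Of these 20 ratios, those of Tbx4 and Meox1 to the endothelial markers were the only ones that did not overlap between the populations. The log2 ratio of Meox1 to the endothelial markers was -7.13, -7.53, -7.73 and -8.03 in QZ1-hi replicates 1 to 4 and -6.91, -5.79, -6.18 and -6.55 in QZ1-lo replicates 1 to 4. Every QZ1-hi value was thus under every QZ1-lo value, with a difference of -1.25 (SE 0.31, exact permutation p = 0.0286, adjusted p = 0.286). For Tbx4 the log2 ratio to the endothelial markers was -8.18 ± 0.479 in QZ1-hi and -7.32 ± 0.374 in QZ1-lo cells, a difference of -0.86 (SE 0.30, exact permutation p = 0.0286, adjusted p = 0.286). On average, both factors thus rose in QZ1-hi cells by less than the endothelial markers did. Neither difference passed the adjustment, nor could it have with so few ratios fully apart. Relative to the mesenchyme markers the differences were -1.63 for Meox1 (exact permutation p = 0.0571, adjusted p = 0.381) and -1.24 for Tbx4 (exact permutation p = 0.0857, adjusted p = 0.429), and these values overlapped.

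**Figure D4:**
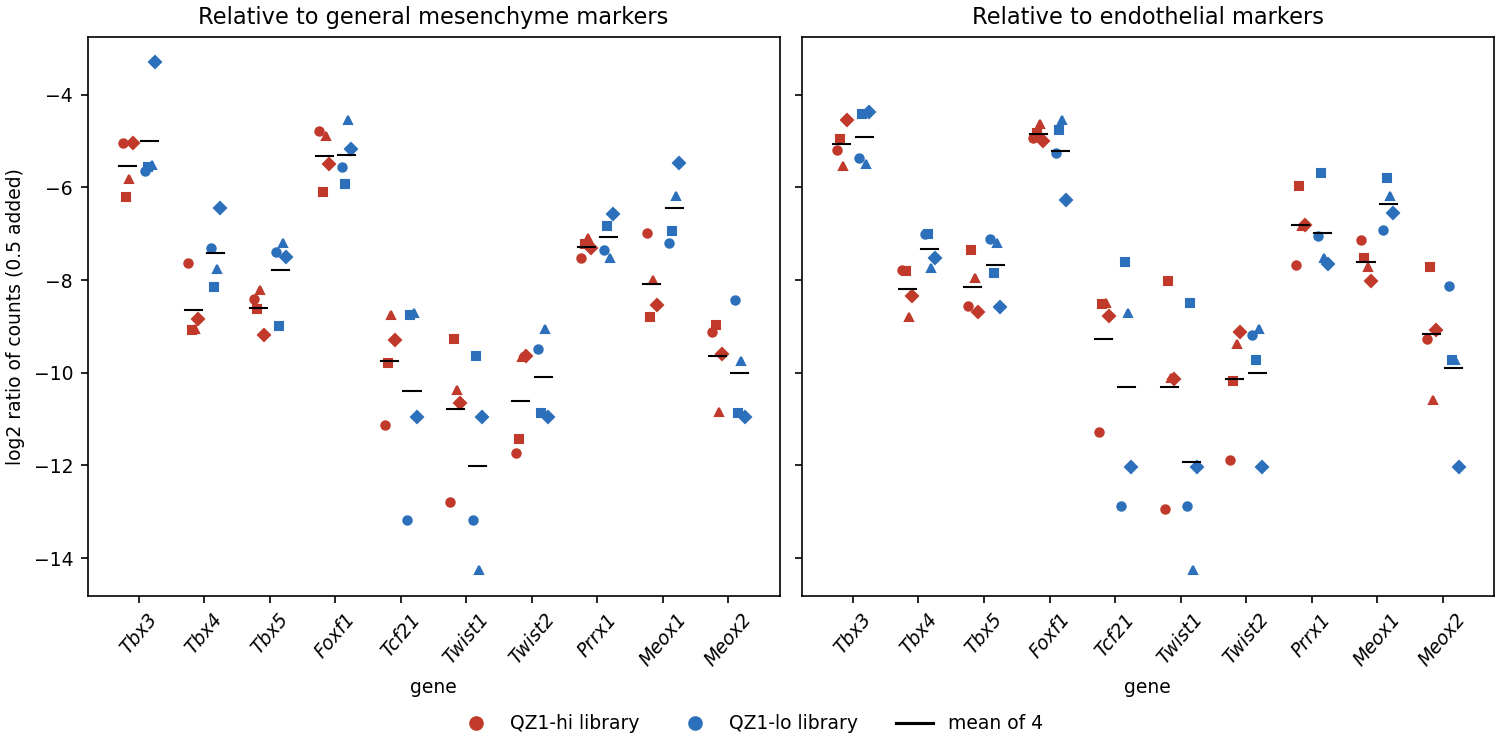
Log2 ratio of the counts of each factor to the summed counts of the general mesenchyme markers (left) and of the endothelial markers (right) in every library, with 0.5 added to each count; red is QZ1-hi, blue is QZ1-lo, the circle, square, triangle and diamond are replicates 1, 2, 3 and 4, and the line is the mean of 4. Tbx3, Foxf1 and Prrx1 have red and blue points that overlap in height, Meox1 and Tbx4 have red points under the blue points on the right, and Tcf21 and Twist1 are spread over several log2 units.

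Pairs of related factors were compared in the same manner, with 6 pairs tested. The log2 ratio of Prrx1 to Prrx2 was 3.29 ± 0.485 in QZ1-hi and 5.25 ± 1.36 in QZ1-lo cells, a difference of -1.96 (SE 0.72) with no overlap, and it did not pass the adjustment (exact permutation p = 0.0286, adjusted p = 0.171). As the only pair fully apart, at the smallest possible p, it could not have passed. In the QZ1-lo libraries this ratio rests on 0 or 1 count of Prrx2. Meox1 relative to Meox2 was 1.55 ± 1.18 in QZ1-hi and 3.55 ± 1.76 in QZ1-lo cells, a difference of -1.99 (SE 1.06, exact permutation p = 0.114, adjusted p = 0.343). Tbx3 relative to Tbx2 differed by 0.13 (SE 0.38), and Tbx4 relative to Tbx5 by -0.41 (SE 0.52). Foxf1 relative to Foxf2 differed by 0.61 (SE 0.96) and Twist1 relative to Twist2 by 1.76 (SE 1.70). None of these 4 passed, with exact permutation p values of 0.371 to 0.714.

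Around the 10 factors, other transcription factors of mesenchyme moved in the same direction. Of 28 listed, 22 were tested, 13 were called higher and none lower, with a median log2 fold change of 2.42 beside 0.02 over all genes tested. Nr2f1, a nuclear receptor of mesenchyme and nerve, was higher by 3.93 on the log2 scale, Snai2, a repressor of E-cadherin, by 3.67, and Meis1, a cofactor of homeobox proteins, by 3.59. Foxc2, a forkhead factor of lymphatic vessels and mesenchyme, was at 0.741 to 1.27 CPM in QZ1-hi cells and at most 2 counts in any QZ1-lo library, and was at least 8.39-fold higher. Foxd1 was at 0 counts in all 8 libraries, with the same limit as Hand1. When at least 10 counts were required in every library, 6 of the 28 were called.

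Endothelial and epithelial transcription factors were set beside them. Of 10 endothelial factors 9 were called higher, with a median log2 fold change of 2.89, led by Sox7 at 3.51, Gata2 at 3.29, Erg at 3.28 and Sox18 at 3.05, all regulators of vessel or blood formation. Of 15 lung epithelial factors 8 were called lower and none higher, with a median log2 fold change of -0.83. Foxj1, the master factor of motile cilia, had a log2 fold change of -2.07, Sox2, a factor of the conducting airway, of -2.06, Foxa1 of -1.48 and Elf3 of -1.20. The mesenchymal factors thus shared their direction with the endothelial list and not with the epithelial list.

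**Figure D5:**
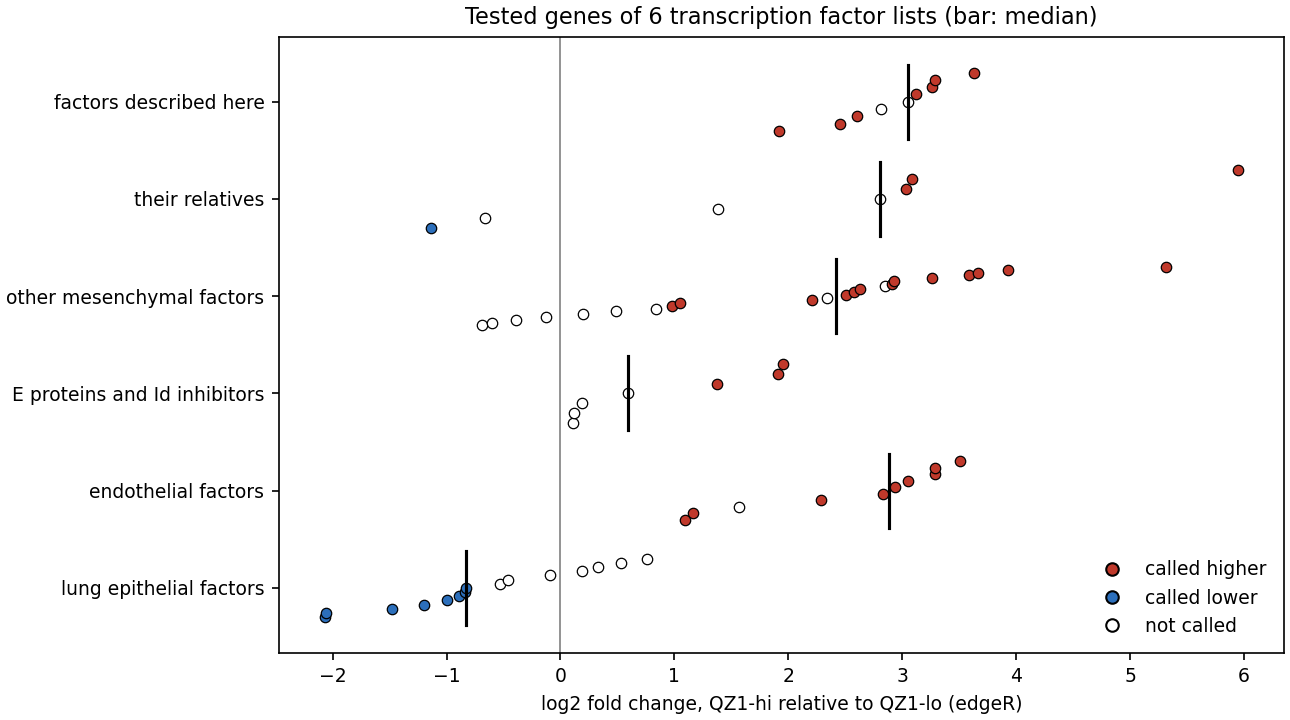
Log2 fold change of QZ1-hi relative to QZ1-lo cells (horizontal axis, edgeR) for every tested gene of 6 transcription factor lists, 1 row of points per list; red marks genes called higher, blue called lower, white not called, and the black bar the median. The medians are 3.05 for the factors described here, 2.89 for the endothelial factors and -0.83 for the lung epithelial factors; the 2 points above 5 are Prrx2 and Foxc2, whose QZ1-lo levels were at the floor.

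Signals that act on or through these factors in the lung bud were listed as well. Of 11 Hedgehog pathway genes 9 were tested, 3 were called higher and none lower. Gli1, a target and effector of the pathway, was 2.92, 8.45, 3.01 and 3.04 CPM in QZ1-hi replicates 1 to 4 and 0, 0.488, 0.253 and 0.164 CPM in QZ1-lo replicates 1 to 4, and rose by 4.28 on the log2 scale (SE 0.82, edgeR adjusted p = 0.00399). The transducer gene Smo rose by 1.22 on the log2 scale (SE 0.28). Ptch1 and Hhip were not called, at log2 fold changes of 0.54 and 1.58 (edgeR adjusted p = 0.0618 and 0.244). Gli2 and Gli3 were not called either. Dhh, a Hedgehog ligand made by endothelial and nerve sheath cells, was not tested but was at least 10.5-fold higher in QZ1-hi cells by the floor of 3 counts. It was read 5 to 36 times in the QZ1-hi libraries. Its exons share 12.4% of their bases with Rhebl1 on the same strand and 25.2% with Gm49442 on the opposite strand. Shh, the epithelial ligand, was 5.28 ± 1.66 CPM in QZ1-hi and 8.94 ± 2.04 CPM in QZ1-lo cells and was not called (edgeR adjusted p = 0.0886).

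Of 7 mesenchymal signals of the lung bud 5 were called higher and none lower. The Wnt ligand genes Wnt2, Wnt2b and Wnt5a rose by 2.90, 2.28 and 1.02 on the log2 scale, and the fibroblast growth factor genes Fgf7 and Fgf10 by 2.73 and 2.63. Bmp4 and Fgf9 were not called. This count depended on single libraries, falling to 1 without QZ1-hi replicate 2, to 2 without QZ1-hi replicate 1 or 3, and to 3 without QZ1-lo replicate 1 or 2.

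Marker lists were read for the cell types that the gates could hold. All 10 endothelial, all 7 adventitial fibroblast and all 6 mesothelial markers were called higher, as were 6 of 7 general mesenchyme markers, Thy1 being the exception. For the mesothelial list the count was 2 without QZ1-hi replicate 2 and 3 without QZ1-lo replicate 3 or 4. Called higher were 3 of 6 alveolar fibroblast markers, 2 of 9 pericyte markers (Pdgfrb and Trpc6; 5 by DESeq2) and 3 of 7 smooth muscle markers (Des, Tagln and Myh11). The pericyte count depends on the list. The study counts Des and Cd248 as pericyte markers, and both were called higher (log2 fold change 2.64 and 3.91) but stood in other lists here. Acta2, also a pericyte marker in the study, was not called. Exons of Tagln share 62.4% of their bases with Gm48529 on the opposite strand. The smooth muscle gene Cnn1 was called lower, at no more than 1 count in any QZ1-hi library, and was at least 3.27-fold lower. Of 10 epithelial markers 7 were called lower and 1, Sftpc, higher, the latter not without QZ1-lo replicate 1, 2 or 4. None of 7 leukocyte markers (median log2 fold change 0.06) and none of 4 erythroid markers (-1.60) was called.

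For each tested factor, the genes with the most similar profile were found among all 15583 tested genes, by the root mean square difference of log2 levels centred on each gene over the 8 libraries. Prrx1 had the closest neighbours, Dcn at 0.163, Pdgfra at 0.227 and Abi3bp at 0.242 log2 units, of which Dcn encodes a matrix proteoglycan and Pdgfra a growth factor receptor of fibroblasts. Tbx4 was nearest to Spon1 at 0.199, Hey1 at 0.200 and Fkbp10 at 0.212. Tbx3 was nearest to Prex2 at 0.230, Armcx4 at 0.243 and Prx at 0.290. The study lists Prx as a marker of aerocytes, a capillary endothelial cell type.

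Foxf1 was nearest to Bmp6 at 0.283, Acer2 at 0.289 and Ushbp1 at 0.291 log2 units. Meox1 was nearest to Id3 at 0.317, Cd300lg at 0.333 and Rtl8c at 0.355, and Tbx5 to Chst1 at 0.355, Rtp3 at 0.364 and Npr3 at 0.379. The factors with fewer counts had no gene closer than 0.5 log2 units: Twist2 was nearest to Pamr1 at 0.514, Ppbp at 0.519 and Foxd2os at 0.526. For Meox2 the nearest were Hrob at 0.526, Muc16 at 0.528 and Adamts3 at 0.528. For Tcf21 they were Tmeff2 at 0.555, Fibin at 0.566 and Sfrp4 at 0.617. Fibin, too, is an aerocyte marker in the study. All 8 libraries enter each distance, so it is set in part by the difference between the populations, and the likeness of 2 profiles is a description.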

How the data were processed

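Sorted lung cells were profiled by bulk RNA-seq in 8 libraries, 4 labelled QZ+ (QZ1-hi) and 4 labelled QZ- (QZ1-lo), and grouped by those labels. The authors made stranded total RNA libraries and deposited raw counts per gene, whole numbers without normalization, made with Rsubread for 27179 Entrez Gene identifiers. The submitters' processing notes name the build mm10 and DESeq2; the aligner, the annotation and the strand setting are not given in the sources used here. The file held no column of another sample. Symbols matched 25275 identifiers and 1904 had none. Listed Tbx3os1 and Tbx5os had no row.

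The main fit used edgeR 4.0.16 in R 4.3.3, with the trimmed mean of M-values, filterByExpr (minimum count 10, minimum total 15), the quasi-likelihood test and Benjamini-Hochberg adjustment over 15583 genes at a threshold of 0.05. The common dispersion was 0.113. Standard errors were taken from the F statistic, as the absolute log2 fold change over its square root. Ratios within a library, with 0.5 added to each count, were tested by exact permutation, two-sided, over 70 assignments. Where all libraries of a population had 3 counts or fewer, a fold is a bound against that floor in each library. P values set the difference between the populations against the spread between these libraries. Exon lengths, exon overlaps and strands are from GENCODE M21, and gene positions and promoter windows from RefSeq, all on GRCm38.p6 (the same build as mm10). The procedure was tested on simulated data.

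Alternatives to the edgeR test were DESeq2 1.42.0 and limma 3.58.1 (voom, sample weights). Alternative scalings were DESeq2 size factors, library size only, and removal of 49 mitochondrial and ribosomal RNA genes. Low counts were left unfiltered, or 10 counts were required in each library. Robust shrinkage, 0.25 or 1 added to counts in ratios, and the omission of each library in turn were also tried. Genes named by rule are the 10 factors, up to 4 called genes of each list with the largest change, list genes at 3 counts or fewer throughout, the paired relatives, and the 3 genes most like each factor. Other list genes (among them Tbx1, Tbx18, Wnt5a, Bmp4, Fgf9, Shh, Mthfsd, Tcf3, Tcf12, Thy1, Sftpc, Epcam and Ptprc) were named after their values were seen. The factors, lists and tests were chosen with earlier results of these data known. The values of 1 listed gene are not reported here.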

Additional observations from a re-analysis of the deposited data

Results flagged for a closer look

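Within a population of 4 libraries, a library was picked out when its gap to the nearest other library took up more of the whole range than Dixon's 95% critical value for 4 samples allows. This held for 6 of 72 sets of values examined. Chance alone flags about 1 in 20 of independent, normally distributed sets. These sets are not independent, since a factor enters as a level and in ratios from the same libraries, so the rates cannot be compared. Twist1 was at 0.407 CPM in QZ1-lo replicate 2 and at 0 in the other QZ1-lo libraries, a pattern that this rule always picks out. The log2 ratio of Twist1 to Twist2 was 2.16 in QZ1-hi replicate 2 and -1.06 to -0.73 in the other QZ1-hi libraries.

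Relative to the general mesenchyme markers, the log2 ratio of Tbx3 was -3.30 in QZ1-lo replicate 4, the library with the lowest sum of those markers, and -5.65 to -5.51 in the other QZ1-lo libraries. For Tbx4 the same ratio was -7.63 in QZ1-hi replicate 1 and -9.08 to -8.85 in the other QZ1-hi libraries. For Tbx5 it was -9.00 in QZ1-lo replicate 2 and -7.50 to -7.21 in the other QZ1-lo libraries. The log2 ratio of Tcf21 to the endothelial markers was -11.28 in QZ1-hi replicate 1 and -8.78 to -8.49 in the other QZ1-hi libraries.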

How the results depend on the processing

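No paired analysis was possible because the labels carry no replicate numbers and tie no pair of libraries to 1 mouse. The log2 fold changes of the 10 factors stayed above 0 in all 146 alternative values, and the number of factors called higher ranged from 5 to 8: 5 with at least 10 counts in every library, where Tbx3, Tbx4, Foxf1, Prrx1 and Meox1 were the only factors tested, 5 without QZ1-hi replicate 3, and 8 by DESeq2, with library size only, with no filter on low counts and without QZ1-lo replicate 3. Over all genes, scaling by library size only gave 882 higher and 2509 lower calls in place of 1540 and 1280, and shifted the median over all genes by -0.47 on the log2 scale, to -0.44.

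Counts of called list genes that moved by over 1.5 times were as follows. With at least 10 counts in every library, 1 relative, 6 other mesenchymal factors, 1 Hedgehog gene, 2 lung bud signals, 1 alveolar fibroblast marker and 4 adventitial markers were called higher and 0 smooth muscle markers lower. DESeq2 called 5 Hedgehog genes and 5 pericyte markers, and limma 5 Hedgehog genes and 0 relatives lower. Robust shrinkage called 3 mesothelial markers, removal of mitochondrial and ribosomal RNA genes 0 smooth muscle markers lower, and library size only 0 epithelial markers higher. With each library left out in turn, relatives called lower numbered 0 to 1, lung bud signals 1 to 5, mesothelial markers 2 to 6 and epithelial markers called higher 0 to 2. With 0.25 added to each count, the difference in the log2 ratio of Twist2 to endothelial markers was 0.13 in place of -0.14. With 1 library left out, 4 against 3 cannot go below an exact p of 0.0571. The causes were not tested. At this depth Twist1, Twist2, Tcf21 and Meox2 each had at least 1 QZ1-lo library at 0 counts.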
